A study of Mus musculus with 3 samples.

Results

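This report describes 10 mouse genes that set the fate of pyruvate and lactate, among 24054 genes in a table of RNA levels from primary cortical neurons. They were picked by gene symbol: the lactate dehydrogenase genes Ldha and Ldhb, the monocarboxylate transporter genes Slc16a1, Slc16a3 and Slc16a7, the pyruvate dehydrogenase kinase genes Pdk1, Pdk2 and Pdk3, the pyruvate dehydrogenase subunit gene Pdha1 and the mitochondrial pyruvate carrier gene Mpc1. All 10 were found. The neurons came from the brain of C57BL/6 mice at embryonic day 17 and were kept in culture for 7 days. A single library was made for each of 3 groups: hypoxia with T3 (0.2% oxygen for 7 hours with 5 nM T3, triiodothyronine, the active thyroid hormone), hypoxia (0.2% oxygen for 7 hours without T3) and control (21% oxygen). The labels do not give the hormone content of the control medium, the number of embryos or whether cultures were pooled. With 1 library per group no difference could be tested against biological variation. All intervals below are 95% intervals computed from read counts alone, so they cover counting error only. Since sequenced reads are not independent molecules, the intervals may be too narrow even for that.

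Pyruvate is the end product of glycolysis. In the cytosol, lactate dehydrogenase reduces it to lactate and regenerates NAD+; the A subunit predominates in tissues that make lactate and the B subunit in those that oxidise it. Monocarboxylate transporters carry lactate and pyruvate with a proton across the plasma membrane. In the brain, MCT1 (Slc16a1) is known from endothelium, astrocytes and oligodendrocytes, MCT4 (Slc16a3) from astrocytes, and the high-affinity carrier MCT2 (Slc16a7) from neurons. Alternatively pyruvate enters mitochondria through the MPC1 and MPC2 carrier and is turned into acetyl-CoA by the pyruvate dehydrogenase complex, whose E1 alpha subunit (Pdha1) is switched off when a kinase of the PDK family phosphorylates it. LDHA, MCT4 and PDK1 are textbook products of target genes of hypoxia-inducible factor (HIF), which binds the core sequence ACGTG or GCGTG.

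The promoters of Ldha, Slc16a1, Slc16a3 and Pdk1 are shown here because these 4 genes had the largest ratios to control, with that of Ldhb, whose ratio was smaller, as the partner of Ldha. Each sequence is from RefSeq (GRCm38.p6) and runs 5′ to 3′ on the gene's strand from 250 bases before the transcription start to 50 bases after it. Capitals mark ACGTG or GCGTG on either strand, so that CACGT and CACGC are the same words on the other strand, and CACGTG, which is also the E-box, is ACGTG on both strands at once.
Ldha promoter, chr7:46845554-46845853, plus strand: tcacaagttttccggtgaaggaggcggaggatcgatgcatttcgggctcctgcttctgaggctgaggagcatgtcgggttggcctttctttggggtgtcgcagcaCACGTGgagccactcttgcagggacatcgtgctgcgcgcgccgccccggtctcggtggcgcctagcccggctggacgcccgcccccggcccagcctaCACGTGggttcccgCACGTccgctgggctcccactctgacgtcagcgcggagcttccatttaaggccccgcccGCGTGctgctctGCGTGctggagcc
Slc16a1 promoter, chr3:104638414-104638713, plus strand: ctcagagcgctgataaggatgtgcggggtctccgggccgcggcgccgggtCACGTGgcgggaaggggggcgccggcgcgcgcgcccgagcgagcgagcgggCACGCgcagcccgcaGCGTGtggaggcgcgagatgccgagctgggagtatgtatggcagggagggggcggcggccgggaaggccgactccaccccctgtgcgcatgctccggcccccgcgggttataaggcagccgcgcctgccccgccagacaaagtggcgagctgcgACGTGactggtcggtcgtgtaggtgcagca
Slc16a3 promoter, chr11:120948817-120949116, plus strand: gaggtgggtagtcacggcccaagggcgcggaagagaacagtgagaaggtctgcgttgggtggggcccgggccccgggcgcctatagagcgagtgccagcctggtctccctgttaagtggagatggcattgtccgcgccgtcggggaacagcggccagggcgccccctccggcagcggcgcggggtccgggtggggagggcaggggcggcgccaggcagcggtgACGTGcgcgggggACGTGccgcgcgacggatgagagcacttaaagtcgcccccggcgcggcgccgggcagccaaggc
Pdk1 promoter, chr2:71872974-71873273, plus strand: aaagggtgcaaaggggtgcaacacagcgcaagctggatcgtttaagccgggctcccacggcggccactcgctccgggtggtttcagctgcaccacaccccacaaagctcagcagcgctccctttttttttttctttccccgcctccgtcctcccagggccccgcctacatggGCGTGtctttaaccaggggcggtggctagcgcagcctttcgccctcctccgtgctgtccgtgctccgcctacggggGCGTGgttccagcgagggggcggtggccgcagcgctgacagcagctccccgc
Ldhb promoter, chr6:142507908-142508207, minus strand: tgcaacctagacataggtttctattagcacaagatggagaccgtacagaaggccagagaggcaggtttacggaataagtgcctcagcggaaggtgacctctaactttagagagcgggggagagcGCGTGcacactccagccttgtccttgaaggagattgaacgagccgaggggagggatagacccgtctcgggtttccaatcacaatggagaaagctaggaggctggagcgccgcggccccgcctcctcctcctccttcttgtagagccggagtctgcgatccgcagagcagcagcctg
The Ldha window held ACGTG 5 times when both strands were read, in 2 CACGTG words that begin 145 and 48 bases before the start and in a single minus-strand word 34 bases before it, besides 2 GCGTG words after the start. The Slc16a1 window held CACGTG 200 bases before the start and ACGTG 21 bases after it, with 2 GCGTG words between them. The Slc16a3 window held ACGTG 27 and 14 bases before the start, and the Pdk1 window held only GCGTG, 78 and 2 bases before it. The Ldhb window held 1 GCGTG. Of the genes with smaller ratios whose windows are not shown, Pdk3 held 1 ACGTG and 3 GCGTG, and Pdha1 held 4 GCGTG. Pdk2 held ACGTG 2 times, in 1 CACGTG word, and Mpc1 held 1 GCGTG. The Pdk1 window thus held fewer words than those of Pdk3 and Pdha1. Promoters were listed for 9 of the 10 genes, 4 of them with more than 1 entry, of which the first is used here. The gene without a listed promoter was Slc16a7, the only 1 of the 10 below control. The counts of words thus offer no contrast with a gene below control. Of the second entries, that of Ldha held 2 GCGTG words, and those of Pdk1, Pdk2 and Mpc1 held neither word. ACGTG was found in 5 of the 9 (Ldha, Slc16a1, Slc16a3, Pdk2 and Pdk3) and either word in 9. Among the 12276 listed promoters of genes compared below, 25.2% held ACGTG and 62.4% held either word, and among all 32851 listed promoters 19.6% and 43.8%. These shares count every listed entry of a gene, but the 9 genes were counted by their first entry, so the units differ. The 9 windows are rich in G and C (57.3% to 73.7%). A word in such a window is a description and not a shown binding site.

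The libraries held 22533574 reads in hypoxia with T3, 17118865 in hypoxia and 18081904 in control. Levels are given in CPM, the read count relative to a scaled library size, on which a single read was worth 0.0425 CPM in hypoxia with T3, 0.0552 CPM in hypoxia and 0.0463 CPM in control. Neuron markers were abundant, with 6 summing to 4504 CPM in hypoxia with T3, 4451 CPM in hypoxia and 3726 CPM in control. The 7 astrocyte markers summed to 528, 504 and 492 CPM, and the 8 oligodendrocyte lineage markers to 202, 201 and 345 CPM. All 6 microglia markers and 5 of 6 endothelial markers were below 1 CPM in every library. In such bulk RNA, fewer cells of a type and less RNA per cell cannot be told apart.

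Ldha, Slc16a1 and Pdk1 were at least 2-fold higher at low oxygen, with or without T3, Slc16a7 was lower, and Ldhb, Pdk2, Pdk3, Pdha1 and Mpc1 lay closer to control. Slc16a3 had the largest plain ratios to control, from few reads. The 2-fold rule was applied to log2 ratios after 1 CPM was added, over the 12692 genes that averaged 1 CPM or more over the libraries. This left 9 of the 10 genes, each of them at 12.5 CPM or more in every library, and left out Slc16a3, whose mean was 0.958 CPM. For hypoxia with T3 over control 3 of the 9 were at least 2-fold higher, against 2.06% of all genes compared, and 0 were at least 2-fold lower, against 4.59%. For hypoxia over control the same counts were 3, against 1.99%, and 0, against 4.92%. The median log2 ratio of the 9 was 0.46 and 0.43 in the 2 comparisons, and that of all genes compared 0.08 and 0.05. Both comparisons use the same control library, so they are not independent.

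**Figure D1:**
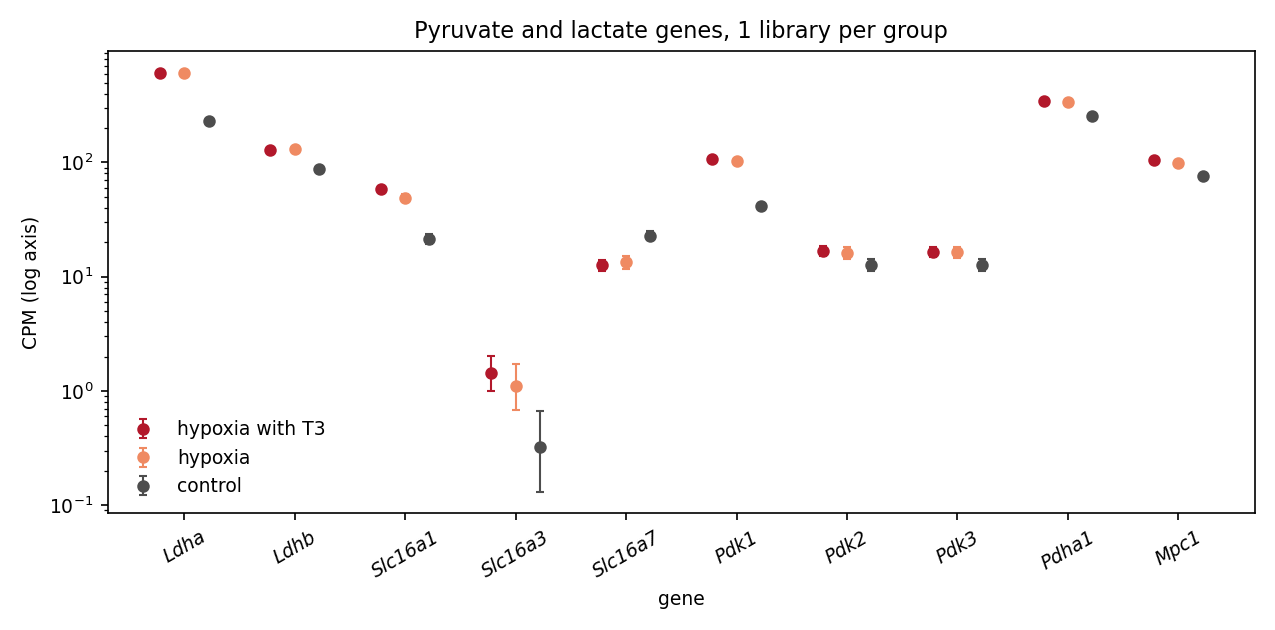
CPM of the 10 genes (log axis) in hypoxia with T3, hypoxia and control, with 1 library per group; bars are exact 95% Poisson intervals for counting error. Slc16a7 is the gene whose control library is the highest, and Slc16a3 is near 1 CPM.

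The counting interval of the ratio lay above 1 for 8 of the 9 genes in each comparison with control, against 40% of all genes for hypoxia with T3 and 37.8% for hypoxia, and below 1 for 1 gene, Slc16a7, against 29.6% and 30%. Such an interval compares these libraries and not the conditions. The scaling of the libraries mattered for the smaller differences. When each library was scaled to the same CPM sum, the median log2 ratio of all genes moved by -0.18 for hypoxia with T3 over control and by -0.16 for hypoxia over control, so that all ratios to control fell by about that much. Of all genes, 199 then passed 2-fold upwards and 920 downwards in hypoxia with T3 over control, in place of 262 and 582, and 192 and 974 in hypoxia over control, in place of 252 and 624. The 8 genes above control stayed above it in that scaling.

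Ldha encodes the A subunit of lactate dehydrogenase (ENSMUSG00000063229.15, chromosome 7, 46841475 to 46855627, forward strand, mm10 here and below). It was at 606 CPM in hypoxia with T3, 610.0 CPM in hypoxia and 229.7 CPM in control, from 14255, 11045 and 4957 reads. The hypoxic libraries lay close together and far above control. Against control Ldha was 2.64-fold higher in hypoxia with T3 (2.55 to 2.73) and 2.66-fold higher in hypoxia (2.57 to 2.75), more than 99.0% of all genes compared in both. Ldhb, the B subunit (chromosome 6, 142490249 to 142507957, minus strand), was at 129 CPM in hypoxia with T3, 129.8 CPM in hypoxia and 87.5 CPM in control. It was 1.47-fold higher in hypoxia with T3 (1.39 to 1.56) and 1.48-fold higher in hypoxia (1.40 to 1.58), short of the 2-fold rule.

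The 2 subunit genes differed from control by unequal amounts. The ratio of Ldha to Ldhb was 1.79-fold higher in hypoxia with T3 than in control (1.68 to 1.91) and 1.79-fold higher in hypoxia than in control (1.67 to 1.92), a comparison in which gene length and library scaling cancel. Per kilobase of exonic sequence, Ldha stood at 2.23 times the level of Ldhb in hypoxia with T3 (2.15 to 2.32), 2.23 times in hypoxia (2.13 to 2.33) and 1.25 times in control (1.18 to 1.31). Some reads of both genes cannot be assigned firmly: 19.6% of the 31-base words of Ldha and 33.0% of those of Ldhb also occur in transcripts of other genes, for Ldhb all of them in Gm5514. No single other gene held the 50% of words taken here to mark a copy.

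**Figure D2:**
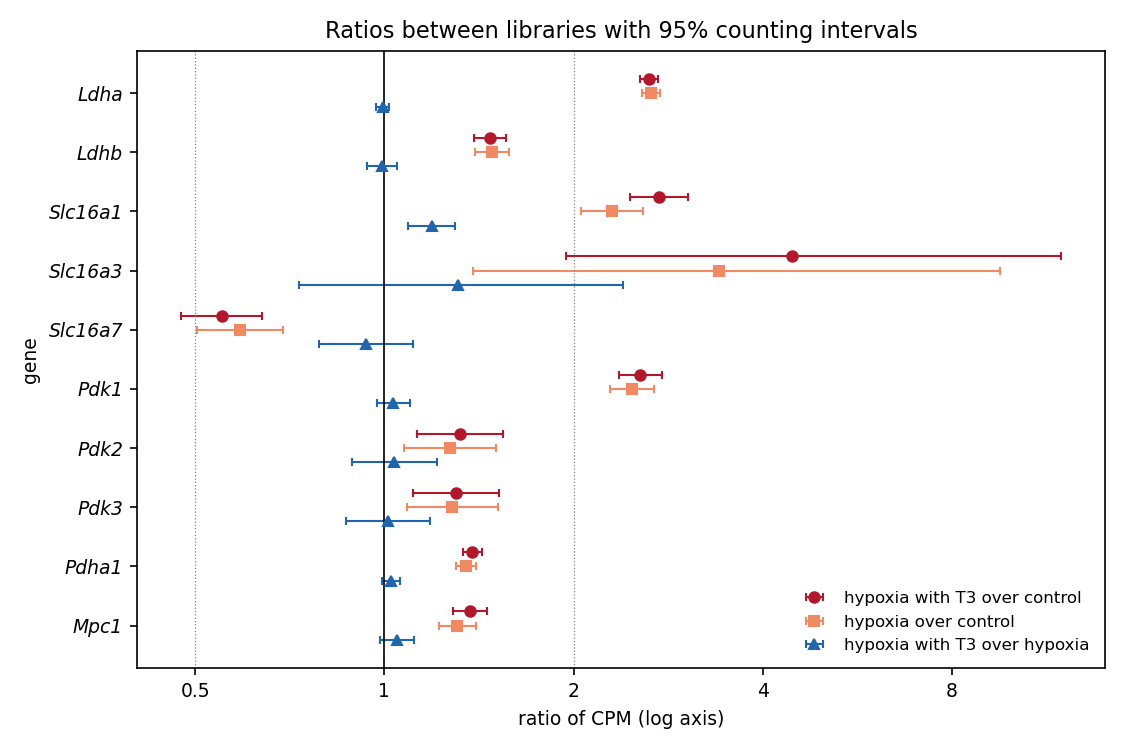
Ratios of CPM between libraries (log axis) for the 10 genes, with 95% counting intervals; dotted lines mark 2-fold. Ldha, Slc16a1, Slc16a3 and Pdk1 stand to the right of the line in both comparisons with control, Slc16a3 furthest and with the widest intervals, and the ratios of hypoxia with T3 over hypoxia lie between 0.935 and 1.19 apart from 1.31 for Slc16a3.

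The monocarboxylate transporter genes lay on opposite sides of control. Slc16a1, which encodes MCT1 (ENSMUSG00000032902.1, chromosome 3, 104638668 to 104658462, forward strand), was at 58.5 CPM in hypoxia with T3, 49.2 CPM in hypoxia and 21.4 CPM in control, from 1376, 891 and 462 reads. It was 2.73-fold higher in hypoxia with T3 than in control (2.46 to 3.04) and 2.30-fold higher in hypoxia than in control (2.05 to 2.58). The value for hypoxia sat close to the rule: with equal CPM sums its log2 ratio was 0.999 and just missed it, while that for hypoxia with T3, 1.23, did not.

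Slc16a7, which encodes MCT2 (ENSMUSG00000020102.15, chromosome 10, 125219270 to 125389465, minus strand), was at 12.5 CPM in hypoxia with T3, 13.4 CPM in hypoxia and 22.8 CPM in control, from 295, 243 and 491 reads. It was the only 1 of the 10 genes below control, 1.81-fold lower in hypoxia with T3 (1.57 to 2.103) and 1.70-fold lower in hypoxia (1.45 to 1.99), and it did not reach the 2-fold rule. Slc16a3, which encodes MCT4 (ENSMUSG00000025161.16, chromosome 11, 120948480 to 120960868, plus strand), was scarce, with 34 reads in hypoxia with T3, 20 in hypoxia and 7 in control, or 1.45, 1.10 and 0.324 CPM. Its ratio to control was 4.46 in hypoxia with T3 (1.94 to 11.9) and 3.41 in hypoxia (1.38 to 9.53). These are ratios of few reads, and the gene was outside those counted.

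The balance of Slc16a1 and Slc16a7 moved further than that of any other pair examined apart from Slc16a3 and Slc16a7. The ratio of Slc16a1 to Slc16a7 was 4.96-fold higher in hypoxia with T3 than in control (4.13 to 5.95) and 3.90-fold higher in hypoxia than in control (3.21 to 4.74). Per exonic kilobase Slc16a1 stood at 12.5 times the level of Slc16a7 in hypoxia with T3, 9.81 times in hypoxia and 2.52 times in control. Which gene was higher in control depends on the length used: per kilobase of the median protein-coding transcript the same ratios were 2.55, 2.004 and 0.514. The ratio of Slc16a3 to Slc16a1 was not detectably different between libraries at this depth, with a change of 1.48-fold for hypoxia over control (0.596 to 4.18). Among the cell types known for MCT1, summed astrocyte markers differed little between libraries and oligodendrocyte lineage markers were lower at low oxygen, with 2 of 8 at least 2-fold lower in each comparison with control. Endothelial markers were near 0, at 1.70 CPM in sum in hypoxia with T3, 1.88 CPM in hypoxia and 1.99 CPM in control. The part of cell makeup in the transporter values was not tested.

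**Figure D3:**
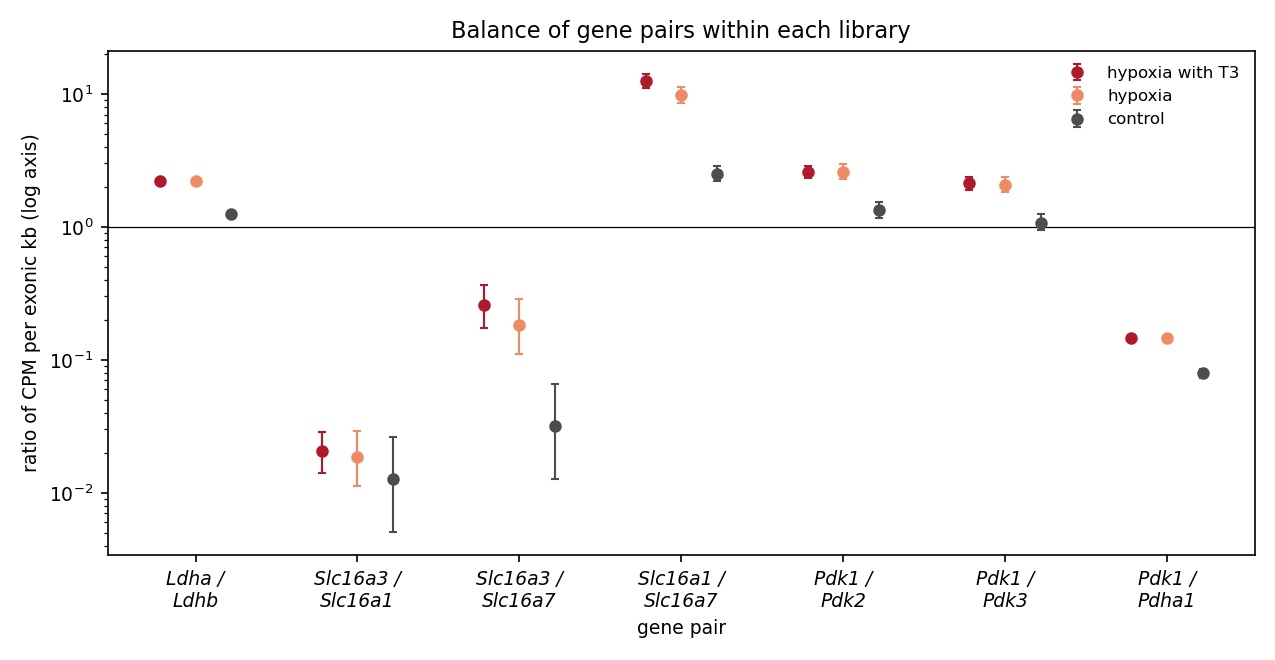
Ratio of CPM per exonic kilobase (log axis) for 7 gene pairs within each library, with 95% counting intervals. The pair of Slc16a1 and Slc16a7 stands at 12.5 in hypoxia with T3, 9.81 in hypoxia and 2.52 in control; another choice of gene length moves the 3 points of a pair by the same factor.

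Of the kinases that switch off pyruvate dehydrogenase, Pdk1 stood apart. Pdk1 (ENSMUSG00000006494.11, chromosome 2, 71873224 to 71903858, forward strand) stood at 106 CPM in hypoxia with T3, 103 CPM in hypoxia and 41.6 CPM in control. It was 2.55-fold higher in hypoxia with T3 than in control (2.37 to 2.76) and 2.47-fold higher in hypoxia than in control (2.28 to 2.68). Pdk2 (chromosome 11, 95026258 to 95041354, minus strand) was at 16.7 CPM in hypoxia with T3, 16.1 CPM in hypoxia and 12.7 CPM in control, 1.32-fold (1.13 to 1.54) and 1.27-fold (1.07 to 1.504) higher than control. Pdk3 (chromosome X, 93764607 to 93832201, minus strand) was at 16.5 CPM in hypoxia with T3, 16.3 CPM in hypoxia and 12.7 CPM in control, 1.30-fold (1.11 to 1.52) and 1.28-fold (1.08 to 1.52) higher than control. With equal CPM sums the intervals of Pdk2 and Pdk3 no longer lay above 1, so that these differences are not firm even against counting error. Pdk4, the kinase isoform induced by fasting in muscle and liver, was at 1.23 CPM in hypoxia with T3, 1.38 CPM in hypoxia and 1.44 CPM in control.

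The ratio of Pdk1 to Pdk2 was 1.94-fold higher in hypoxia with T3 than in control (1.62 to 2.31) and 1.95-fold higher in hypoxia than in control (1.61 to 2.35). Against Pdk3 the same changes were 1.97-fold (1.65 to 2.34) and 1.93-fold (1.598 to 2.32). Per exonic kilobase, Pdk1 and Pdk3 could not be told apart in control, at a ratio of 1.08 (0.941 to 1.24), whereas the ratio was 2.12 in hypoxia with T3 (1.91 to 2.37) and 2.08 in hypoxia (1.84 to 2.36). Per kilobase of the median protein-coding transcript it was 1.34 in control (1.17 to 1.54).

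Pdha1 and Mpc1, which serve the mitochondrial route of pyruvate, were modestly higher than in control. Pdha1, the E1 alpha subunit and substrate of the kinases (chromosome X, 160122209 to 160138413, minus strand), was at 348 CPM in hypoxia with T3, 339.9 CPM in hypoxia and 252 CPM in control. It was 1.38-fold higher in hypoxia with T3 (1.33 to 1.43) and 1.35-fold higher in hypoxia (1.30 to 1.40). Mpc1, a subunit of the inner membrane pyruvate carrier (chromosome 17, 8282904 to 8297661, forward strand), was at 104 CPM in hypoxia with T3, 99.6 CPM in hypoxia and 76.2 CPM in control. It was 1.37-fold higher in hypoxia with T3 (1.29 to 1.46) and 1.31-fold higher in hypoxia (1.22 to 1.40). These ratios exceeded those of 78.7% to 84.3% of all genes compared. The ratio of Pdk1 to Pdha1 was 1.85-fold higher in hypoxia with T3 than in control (1.70 to 2.02) and 1.84-fold higher in hypoxia than in control (1.68 to 2.01). Pdha1 shares 603 exonic bases with Map3k15 and Mpc1 shares 480 with 4930506C21Rik, both on the opposite strand, but neither of these exceeded 1.39 CPM in any library. Whether strand was used in counting is not given in the sources used here.

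Per exonic kilobase, Ldha was the most abundant of the 10 in all 3 libraries, followed by Pdha1, Ldhb and Mpc1. Ldha was at 183 CPM per kilobase in hypoxia with T3, 184 in hypoxia and 69.4 in control, and Pdha1 at 93.2, 91.0 and 67.6. In control these 2 levels were near each other, and in the hypoxic libraries they were apart. Pdk1, Slc16a1, Pdk3 and Pdk2 followed in both hypoxic libraries, between 13.7 and 5.08 CPM per exonic kilobase, then Slc16a7 at 1.06 in hypoxia with T3 and 1.13 in hypoxia, and Slc16a3 last. In control Pdk3 and Slc16a1 were close, at 4.96 and 4.84 CPM per exonic kilobase. The order depends on the length used: per kilobase of the median protein-coding transcript Ldha was again first in each library, but Ldhb, Mpc1 and Pdha1 followed in that order, and in control Slc16a7 came next, at 9.41 CPM per kilobase, above Pdk1 at 8.03. That median counts every annotated protein-coding transcript alike. It was 0.7985 kb for Ldha and 0.825 kb for Ldhb, against 3.31 and 1.57 exonic kb. Such short lengths raise the levels per kilobase, so this second order is not an equal alternative.

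The libraries of hypoxia with T3 and of hypoxia lay near each other for most of these genes. With 1 library each, an effect of T3 was not tested. For hypoxia with T3 over hypoxia, 0 of the 9 genes were at least 2-fold higher, against 0.126% of all genes, and 0 at least 2-fold lower, against 0.063%. The median log2 ratio of the 9 was 0.03, and that of all genes 0.01. The counting interval lay above 1 for 1 of the 9, Slc16a1, against 11.1% of all genes, and below 1 for 0, against 6.71%, so that this count is near the background. Slc16a1 was 1.19-fold higher in hypoxia with T3 than in hypoxia (1.09 to 1.30), more than 92.6% of all genes compared. The ratio of Slc16a1 to Slc16a7 was 1.27-fold higher (1.05 to 1.54).

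For the lactate dehydrogenase genes the ratios of hypoxia with T3 over hypoxia were 0.994 for Ldha (0.969 to 1.02) and 0.992 for Ldhb (0.940 to 1.05). Those of Pdk1, Pdk2 and Pdk3 were 1.03 (0.973 to 1.10), 1.04 (0.889 to 1.21) and 1.01 (0.868 to 1.18). Pdha1 was at 1.02 (0.991 to 1.06), Mpc1 at 1.05 (0.985 to 1.11) and Slc16a7 at 0.935 (0.786 to 1.11). For Slc16a3 the ratio of 1.31 (0.732 to 2.40) does not show a direction at this depth.

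Genes with a long span from first to last exon tended to be lower at low oxygen in these libraries, and the 10 genes differ in span. The median log2 ratio of hypoxia over control was 0.33 for the 2948 genes under 10 kb, 0.18 for the 3962 genes of 10 to 30 kb, -0.12 for the 3657 genes of 30 to 100 kb and -0.35 for the 1524 genes of 100 to 300 kb. Ldha, Ldhb, Slc16a1, Slc16a3, Pdk2, Pdha1 and Mpc1 fall in the class of 10 to 30 kb. Slc16a7, at 170 kb, is by far the longest of the 10. Its log2 ratio of -0.72 for hypoxia over control was below the median of its class, yet 28.9% of the genes in that class were lower still. For hypoxia with T3 over control, its log2 ratio of -0.81 compares with a class median of -0.34, and 23.6% of the class were lower.

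Pdk1 had a log2 ratio of hypoxia over control of 1.29, above 99.7% of its class, of which 0.438% were at least 2-fold higher. Its span of 30.6 kb lies just past the lower edge of that class, so these shares depend on where the edge was set. In the class of 10 to 30 kb, 1.94% were at least 2-fold higher and the median was 0.18. Pdk3, at 67.6 kb, had a ratio of 0.34, above 89.8% of the class of 30 to 100 kb. Ldha stood above 99.3% of its class and Slc16a1 above 98.7%. The part of span in the value of Slc16a7 was not tested.

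**Figure D4:**
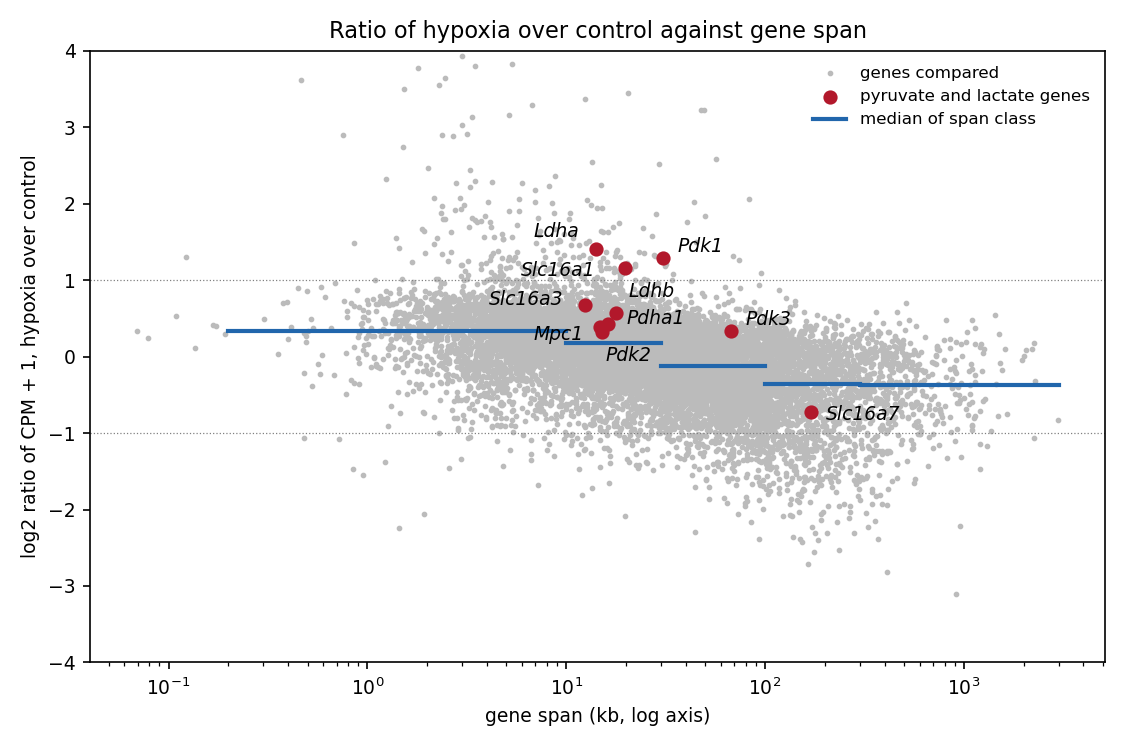
Log2 ratio of hypoxia over control (1 CPM added) against gene span in kb (log axis) for the genes compared (grey), the 10 genes (red) and the median of each span class (blue); dotted lines mark 2-fold and 7 genes lie beyond the plotted range. Slc16a7 is at 170 kb and -0.72, and Pdk1 at 30.6 kb and 1.29. Pdk1 lies near the lower edge of its class, above the class medians on both sides of that edge, -0.12 and 0.18.

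Of 49 other genes of pyruvate and lactate metabolism in 5 lists, 42 reached the 1 CPM average. Their log2 ratios to control ran from -0.52 to 0.82, short of those of Ldha, Slc16a1 and Pdk1, which had passed the 2-fold rule. Of the 42, 0 were at least 2-fold higher or lower in any of the 3 comparisons. Of all genes, 2.06% were higher and 4.59% were lower in hypoxia with T3 than in control, and 1.99% and 4.92% in hypoxia than in control. For 42 genes a count of 0 is near these shares. The median log2 ratio of the 42 was 0.25 for hypoxia with T3 over control, with 30 of the 42 above 0, and 0.21 for hypoxia over control, with 29 above 0. With equal CPM sums these medians were 0.06 and 0.04, with 23 and 22 above 0. Of all genes compared, 56.4% were above 0 for hypoxia with T3 over control and 54.5% for hypoxia over control, with medians of 0.08 and 0.05, and with equal CPM sums 40.9% and 41.1%.

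Among the 10 other genes of the pyruvate dehydrogenase complex and its regulation, 5 ratios of hypoxia with T3 over control and 4 of hypoxia over control were above 0 on the log2 scale, with medians of -0.02 and -0.06, and 2 and 3 with equal CPM sums. Pdhb, the E1 beta subunit, was at 93.6 CPM in hypoxia with T3, 91.2 CPM in hypoxia and 64.9 CPM in control, a ratio to control of 1.44 (1.35 to 1.54) in hypoxia with T3 and 1.40 (1.31 to 1.51) in hypoxia. The phosphatase gene Pdp2, whose product reverses the action of the kinases, had ratios of 1.41 (1.21 to 1.64) and 1.2 (1.02 to 1.42). Those of Lias, the lipoic acid synthase, were 1.13 (0.992 to 1.29) and 1.25 (1.09 to 1.44), and those of Lipt1, a lipoyl transferase with few reads, 0.960 (0.673 to 1.37) and 0.660 (0.427 to 1.01). The E1 subunit genes Pdha1 and Pdhb thus had larger ratios than the E2 gene Dlat, which was at 72.2 CPM in hypoxia with T3, 63.7 CPM in hypoxia and 67.2 CPM in control.

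Of 9 lactate genes only 3 reached a mean of 1 CPM. Bsg, which encodes basigin, the chaperone that brings MCT1 and MCT4 to the cell surface, was at 378 CPM in hypoxia with T3, 378 CPM in hypoxia and 213 CPM in control, a ratio to control of 1.77 in hypoxia with T3 (1.71 to 1.84) and in hypoxia (1.71 to 1.84). Emb, which encodes embigin, the partner of MCT2, was at 2.04 CPM in hypoxia with T3, 2.04 CPM in hypoxia and 3.24 CPM in control, a ratio of 0.629 (0.426 to 0.921) and 0.630 (0.411 to 0.951). The 2 partner genes thus lay on the same sides of control as Slc16a1 and Slc16a7. Slc16a8, which encodes MCT3, was at 3.15 CPM in hypoxia with T3, 3.15 CPM in hypoxia and 1.85 CPM in control. The lactate receptor gene Hcar1 had 0 reads in hypoxia with T3, 0 in hypoxia and 1 in control. A count of 0 was taken to allow up to 3 reads, or 0.128 CPM in hypoxia with T3 and 0.166 CPM in hypoxia. The exact Poisson intervals reached 0.157 and 0.204 CPM.

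Of 10 genes of the shuttles that pass electrons from cytosolic NADH to mitochondria, 9 were compared, and 0 of these reached 2-fold. In each comparison with control 9 had log2 ratios above 0, or 8 with equal CPM sums. Of all genes, 56.4% were above 0 for hypoxia with T3 over control and 54.5% for hypoxia over control, and 40.9% and 41.1% with equal CPM sums. The medians of the 9 were 0.51 for hypoxia with T3 over control and 0.43 for hypoxia over control, against 0.08 and 0.05 for all genes. The tenth, Slc25a13, a carrier of aspartate and glutamate, was too scarce to compare and lay below control, with 1 read in hypoxia with T3, 1 in hypoxia and 10 in control, a ratio of 0.0918 (0.00211 to 0.645) and 0.119 (0.00275 to 0.838). Mdh2, the mitochondrial malate dehydrogenase, was at 294 CPM in hypoxia with T3, 299 CPM in hypoxia and 202 CPM in control, and its cytosolic partner Mdh1 at 317, 302 and 219 CPM. The aspartate aminotransferase gene Got2 and the carrier gene Slc25a11 had ratios of hypoxia over control of 1.40 (1.34 to 1.46) and 1.38 (1.27 to 1.49). Of 12 citric acid cycle genes, 10 were above 0 in each comparison with control, with medians of 0.26 and 0.21. With equal CPM sums 8 were above 0 for hypoxia with T3 and 6 for hypoxia. Their medians were then 0.07 and 0.03, where those of all genes were -0.10 and -0.10. Idh3b, a subunit of isocitrate dehydrogenase, was at 111 CPM in hypoxia with T3, 105 CPM in hypoxia and 71.5 CPM in control. The ratios of hypoxia over control for Dlst and Idh3g were 1.33 (1.26 to 1.40) and 1.34 (1.23 to 1.45).

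Among 8 genes of other pyruvate routes, 4 ratios of hypoxia over control were above 0 and 4 below, with a median of -0.06, and likewise 4 and 4 for hypoxia with T3 over control, with a median of 0.01. With equal CPM sums 3 were above 0 in each. Me2, the mitochondrial malic enzyme, was at 11.99 CPM in hypoxia with T3, 11.87 CPM in hypoxia and 17.5 CPM in control, a ratio of 0.685 (0.585 to 0.801) and 0.678 (0.571 to 0.804). Gpt2, which interconverts pyruvate and alanine in mitochondria, was at 31.04 CPM in hypoxia with T3, 29.99 CPM in hypoxia and 43.3 CPM in control, a ratio of 0.717 (0.650 to 0.791) and 0.693 (0.622 to 0.771). Mpc2, the partner of Mpc1, was at 47.2 CPM in hypoxia with T3, 49.7 CPM in hypoxia and 37.96 CPM in control. Me3, the other mitochondrial malic enzyme, had ratios of 1.43 (1.06 to 1.94) and 1.47 (1.07 to 2.02).

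**Figure D5:**
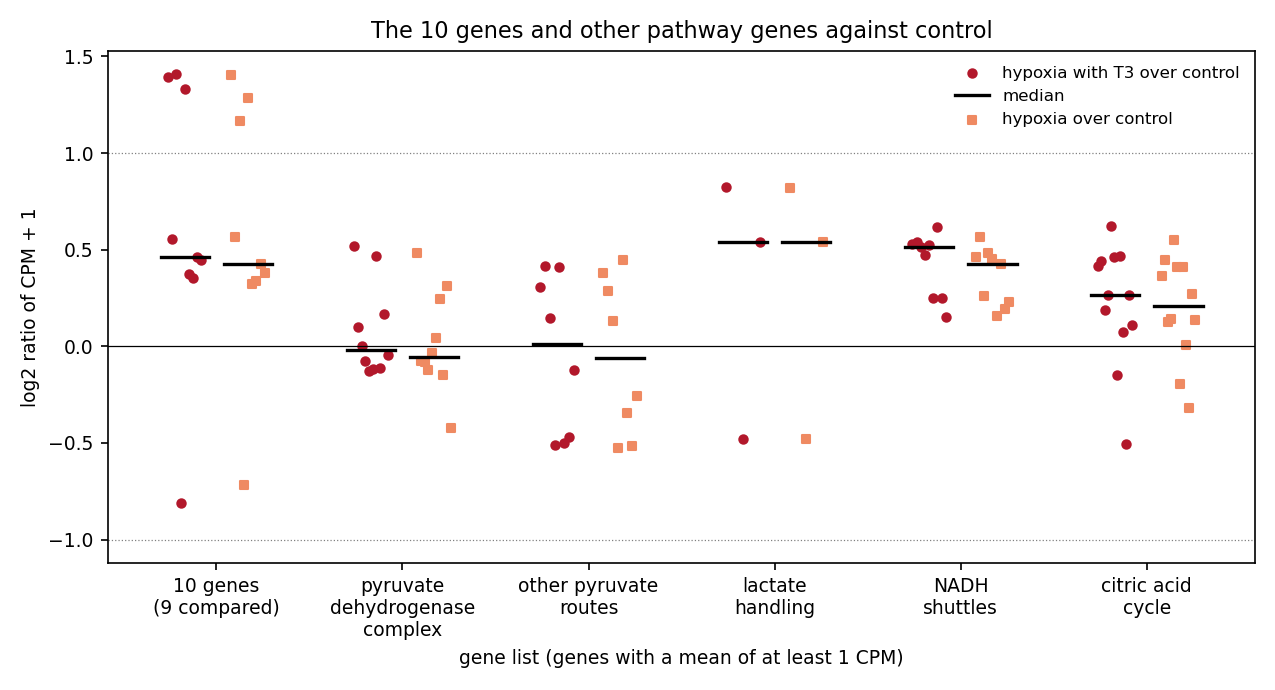
Log2 ratios against control (1 CPM added) of the 9 compared genes and of the compared genes of 5 pathway lists, for hypoxia with T3 (circles) and hypoxia (squares), with medians as black lines and dotted lines at 2-fold. Ldha, Slc16a1 and Pdk1 are the points above the upper line.

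The authors' deposited table for hypoxia with T3 over control gave p-values below 0.05 for 4 of the 10 genes, Ldha, Slc16a1, Slc16a3 and Pdk1, against 6.18% of its 13152 genes, where the labels leave the test unnamed and each side was a single library. The authors' deposited table for hypoxia over control gave such p-values for 3, Ldha, Slc16a3 and Pdk1, against 6.34%. The lowest false discovery rate among the 10 in the authors' deposited table was 0.395 for hypoxia with T3 and 0.661 for hypoxia, so that 0 of them passed 0.05. Over all genes of the authors' deposited table for hypoxia with T3, 0.403% passed as higher and 0.388% as lower, and of that for hypoxia 0.388% and 0.259%.

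The genes whose pattern lay nearest to those of Ldha and Pdk1 were found among the 6958 genes averaging 20 CPM or more, by the distance between their pairs of log2 ratios to control. Over so few libraries this is a description only. For Ldha they were Csrnp2, Pfkl, Brd2, Fam162a and Dusp4, at distances of 0.04, 0.04, 0.06, 0.11 and 0.11. For Pdk1 they were Taf1d, Narf, Slc2a3, Tbl2 and Med22, at distances of 0.02, 0.02, 0.03, 0.06 and 0.09. Pfkl was at 117 CPM in hypoxia with T3, 117 CPM in hypoxia and 44.6 CPM in control, and Slc2a3 at 234, 226 and 93.3 CPM.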

How the data were processed

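Strand-specific RNA libraries (KAPA kit) of 3 cultures were sequenced, 1 per group. Build mm10 and the tools RSEM 1.2.15, Bowtie2 2.1.0 and bcl2fastq 2.17 stand in the submitters' processing notes, with no roles. The authors deposited CPM for 24054 genes, which the file's own name calls TMM-scaled (trimmed mean of M-values). All values were whole multiples, within 0.01, of 1 read (100%), so reads were recovered; with 1 library per group a count model has no residual degrees of freedom and was not run. The authors also deposited 2 comparison tables, with a signed fold, p-value and false discovery rate for each gene, per the file headers. The signal columns that the authors deposited in the same tables are normalised values on another scale, by steps not given in the sources used here, and were left out.

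Log2 ratios were computed with 1 CPM added to each level, for 12692 genes averaging 1 CPM or more. Folds in the text are plain ratios of CPM. Intervals for folds and for gene ratios within a library are 95% Clopper-Pearson intervals on reads, those for changes of a gene ratio exact conditional odds ratio intervals, and those for levels exact Poisson intervals. Apart from these intervals, a count of 0 was taken to allow up to 3 reads. Spans and exonic lengths came from GENCODE M21 (GRCm38, the assembly of mm10), matched for 12586 genes (99.2% of those compared) and all 10 genes described. The procedure was tested on simulated data. The work used scipy 1.17.1, pandas 2.3.3, numpy 2.4.6, matplotlib 3.10.9 and Python 3.11.15.

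The 10 genes, the gene lists and the rules were chosen with earlier results of these data known. Named were the 10 genes, up to 4 genes per list with the largest ratio of hypoxia over control, any list gene passing the 2-fold rule (0 did), and the 5 genes nearest to Ldha and to Pdk1. A gene that this rule names is not reported here. Dlat, Pdk4, Hcar1 and Slc25a13 were named after their values were seen. Alternatives covered the added value, the filter, the scaling and the threshold.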

Additional observations from a re-analysis of the deposited data

How the results depend on the processing

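The 3 genes at least 2-fold higher than control, Ldha, Slc16a1 and Pdk1, were the same with 0.1 or 5 CPM added, with no filter or a mean of at least 5 CPM, with median-of-ratios size factors and at 1.5-fold. For hypoxia over control the count was 2, without Slc16a1, both with equal CPM sums and relative to the median of the span class (an alternative chosen after the data were seen); for hypoxia with T3 over control it was 3 in each. At 1.5-fold, 1 gene, Slc16a7, counted as lower in each comparison with control, in place of 0. The count of other pathway genes passing 2-fold was 0 under every alternative run for it. No log2 ratio of a gene past the 2-fold rule reversed its sign. With equal CPM sums 12 of 30 log2 ratios moved by more than their counting error and 18 did not. With equal CPM sums, a scaling chosen for the intervals after the data were seen, 7 of 10 genes had an interval above 1 in each comparison with control, with Slc16a3 counted and Pdk2 and Pdk3 not, against 25.8% of all genes for hypoxia with T3 and 25.2% for hypoxia. Adding reads of copies was not run, as no gene met the 50% rule. No paired analysis was possible because each group has 1 library. Depth limits Slc16a3 most, at 7 to 34 reads per library. The alternatives changed 1 setting at a time, and Slc16a3 passed the 2-fold rule in none of them. With 0.1 CPM added its log2 ratios were 1.86 in hypoxia with T3 and 1.51 in hypoxia, but the filter left it out. With no filter and 1 CPM added they were 0.88 and 0.67. The count with both settings changed was not run, so the stable count of 3 partly reflects this choice.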
